A study of Mus musculus with 16 samples.

Results

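Heat shock proteins and chaperones were followed in CD8+ T cells taken from 4 tissues of the same kind of mouse. Members were chosen by gene symbol alone: any symbol that begins with Hsp or Dnaj, the Cct subunits of the chaperonin, and Bag followed by a digit. The count table listed 9223 genes, of which 66 met this rule, 19 by Hsp, 35 by Dnaj, 6 by Cct and 6 by Bag. The Cct members in the table were Cct2, Cct3, Cct4, Cct5, Cct7 and Cct8. By role, 8 were stress-induced cytosolic chaperones, 14 were cytosolic J proteins, 9 were mitochondrial and 12 belonged to the endoplasmic reticulum. A constitutive class of 8 held the other cytosolic Hsp70 and Hsp90 genes, with Hspbp1 and Hspbap1 placed beside them. A further 6 were chaperonin subunits and 5 were BAG co-chaperones other than Bag3. Dnajb13, Dnajc12 and Dnajc14 were kept apart as other J proteins. Hspb11 matched by name only, as it encodes a component of intraflagellar transport.

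Chaperones bind proteins that are not yet folded or have lost their fold. Hsp70 proteins cycle on and off such clients with ATP, J proteins (the Dnaj genes) deliver the clients and start ATP hydrolysis, and BAG and Hsp110 proteins exchange the nucleotide so that the client leaves. Hsp90 takes over late folding steps of kinases and receptors, CCT folds actin and tubulin in a closed chamber, and mitochondria and the endoplasmic reticulum hold their own sets. Some copies are made at all times (Hspa8, Hsp90ab1). Others are switched on within minutes of heat or proteotoxic stress by the transcription factor Hsf1 (Hspa1a, Hspa1b, Dnajb1), and the endoplasmic reticulum set answers to the unfolded protein response. In T cells, receptor stimulation also raises several of these genes, and tissue dissociation at warm temperature is a known trigger of the heat shock and immediate early genes.

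The cells were Pmel CD8+Thy1.1+ T cells, which carry a transgenic receptor for the melanocyte antigen gp100. They were recovered from skin, liver, lung and draining lymph node of C57BL/6 mice aged 16 weeks with melanoma-associated vitiligo, 45 days after tumor surgery, and all 4 groups share this genotype, disease state and age. Skin was digested with collagenase and DNase for 45 minutes, liver for 40 minutes with the same kinds of enzyme and lung for 30 minutes with Liberase and DNase, each at 37 °C, whereas lymph nodes were only dissociated mechanically. Tissue and digestion therefore cannot be told apart here. Within a tissue the 4 samples are distinguished by a lane-like ending and nothing else, so each tissue is 1 library without replicate, no difference was tested and no p-value is given. The number of mice behind each library is not stated.

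The table held 1224 skin, 556 liver, 2322 lung and 1625 lymph node cells, with totals of 3292210, 1928185, 8072278 and 4532333 counts in the same order and median counts per cell between 2517.5 and 3095.5. All 9 T cell markers examined were present in every tissue. Genes of other cells were sparse: at equal depth Lyz2 of myeloid cells was counted in 5.22% of lung cells and 1.07% of lymph node cells. Mitochondrial genes took 1.62% of counts in skin, 1.99% in liver, 1.87% in lung and 1.71% in lymph node, and ribosomal protein genes 18.3%, 23.6%, 23.4% and 23.5% in that order. Skin and lymph node cell names carry a 2 that liver and lung names lack. A set of 13 pseudogenes, mostly of ribosomal proteins, ran at 7766 CPM in skin and 7073 CPM in lymph node, against 2098 CPM in liver and 2143 CPM in lung, so the libraries fall into pairs by the form of their cell names as well as by tissue. Across libraries, 19 cell barcodes were shared, most of them between skin and lung (7) and between lung and lymph node (7).

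The promoters of 5 members, read from RefSeq on GRCm38.p6, are shown because their genes stand for the cytosolic, mitochondrial and endoplasmic reticulum responses described next. The first pair belongs to the inducible Hsp70 genes, which lie side by side on chromosome 17 (Hspa1a at 34969359-34972156, Hspa1b at 34956429-34959238), and is shown to make plain how alike the copies are. Each run is the 250 bases before the start site, 5′ to 3′ on the gene's own strand, and capitals mark GAANNTTC, a pair of the units that Hsf1 binds.

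Hspa1a promoter, chr17:34972157-34972406, minus strand: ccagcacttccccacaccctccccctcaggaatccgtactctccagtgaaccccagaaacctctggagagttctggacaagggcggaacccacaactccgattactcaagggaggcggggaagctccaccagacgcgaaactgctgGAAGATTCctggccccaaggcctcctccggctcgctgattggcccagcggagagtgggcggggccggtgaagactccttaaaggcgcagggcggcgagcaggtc

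Hspa1b promoter, chr17:34959239-34959488, minus strand: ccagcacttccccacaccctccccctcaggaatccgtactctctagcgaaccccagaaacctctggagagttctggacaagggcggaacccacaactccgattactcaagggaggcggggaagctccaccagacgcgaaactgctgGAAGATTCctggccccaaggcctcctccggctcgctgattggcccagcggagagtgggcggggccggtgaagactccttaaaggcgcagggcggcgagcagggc

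Over these windows 247 of 250 bases were identical (98.8%). The coding parts of the pair are near copies too, so the authors' counting may have divided reads between them, and their sum is the safer value. The next window lies before Hspe1 and takes in a start of Hspd1, which encode the lid and the barrel of the mitochondrial chaperonin and are read away from each other on chromosome 1. Capitals mark 2 overlapping matches to the heat shock element GAANNTTCNNGAA, one on each strand. The same bases fall in the window of Hspd1.

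Hspe1 promoter, chr1:55087898-55088147, plus strand: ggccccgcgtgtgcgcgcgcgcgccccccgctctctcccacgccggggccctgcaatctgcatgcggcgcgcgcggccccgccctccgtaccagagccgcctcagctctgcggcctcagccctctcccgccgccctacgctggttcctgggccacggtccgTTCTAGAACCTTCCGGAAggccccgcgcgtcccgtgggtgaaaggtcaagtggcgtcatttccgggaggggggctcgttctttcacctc

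The last windows belong to Hspa5 (BiP, the Hsp70 of the endoplasmic reticulum) and Hsp90b1 (Grp94, its Hsp90). Capitals mark the endoplasmic reticulum stress element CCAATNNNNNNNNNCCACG, which the unfolded protein response uses, with 1 match in Hspa5 and 2 in Hsp90b1, those in Hsp90b1 on opposite strands.

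Hspa5 promoter, chr2:34771840-34772089, plus strand: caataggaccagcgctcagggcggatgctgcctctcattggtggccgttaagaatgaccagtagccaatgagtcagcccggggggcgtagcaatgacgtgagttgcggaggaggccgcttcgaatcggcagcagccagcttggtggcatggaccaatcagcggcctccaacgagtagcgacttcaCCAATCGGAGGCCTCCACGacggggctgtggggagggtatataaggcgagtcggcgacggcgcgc

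Hsp90b1 promoter, chr10:86705445-86705694, minus strand: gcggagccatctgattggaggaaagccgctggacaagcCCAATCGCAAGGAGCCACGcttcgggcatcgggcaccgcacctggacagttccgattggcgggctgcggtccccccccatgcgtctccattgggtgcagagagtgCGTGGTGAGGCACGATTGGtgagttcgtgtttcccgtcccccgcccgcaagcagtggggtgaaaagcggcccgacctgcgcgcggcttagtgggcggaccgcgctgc

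Of the 66 members, 53 had a promoter in the RefSeq table, in windows of 300 bases that include 50 after the start. A gene was counted when any of its windows held a match on either strand. GAANNTTCNNGAA was found in 4 of the 53 (7.55%: Hspd1, Hspe1, Dnajb6 and Hsph1), beside 0.662% of all 27025 genes with windows. The shorter GAANNTTC, which every such match contains, was found in 10 of the 53 (18.9%), beside 9.04% of all genes. The endoplasmic reticulum element was found in 3 of the 53 (5.66%: Hspa5, Hsp90b1 and Dnajc3), beside 0.137% of all genes. These matches are letters in a sequence and show no binding.

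Levels are pooled: the counts of a gene over all cells of a tissue, scaled to 1000000 counts of that tissue (CPM), with a 95% interval that reflects counting error alone. Fewer cells that express a gene and less RNA per cell cannot be told apart from such a level alone. A member was taken as higher or lower between a pair of tissues when its CPM differed at least 2-fold, the interval of the ratio excluded equality and the counts summed to at least 20, which 64 of the 66 reached in all 6 comparisons. Bag2 and Dnajb5 fell short in some.

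Together the 66 members took 11572 CPM in skin, 10679 in liver, 8087 in lung and 8291 in lymph node. In skin over lymph node, 6 members were higher (Hspa1a, Hspa1b, Dnaja1, Hspa5, Hspa2 and Dnajc12) and 1 was lower (Bag5), where 5.5% of all genes were higher and 9.86% lower. In liver over lymph node, 4 were higher (Hspa1a, Hsp90aa1, Hspa2 and Bag2) and 5 lower (Dnajb2, Dnajb5, Dnajb13, Bag5 and Dnajc18), beside 3.78% and 20% of all genes. In lung over lymph node, 0 were higher and 6 lower (Dnajb2, Dnajb14, Dnajb5, Dnajc13, Hspa1b and Dnajc18), beside 3.47% and 18.3%. In these 3 comparisons the share of members that were lower was below the share of all genes that were lower.

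Between the digested tissues, 11 members were higher in skin over lung (Hspa1a, Hspa1b, Hspa2, Hspa5, Hsp90b1, Dnaja1, Dnajb1, Dnajb2, Dnajb5, Dnajc10 and Dnajc12) and 0 lower, beside 15.5% and 6.11% of all genes. In skin over liver, 9 were higher (Hspa4l, Hspa5, Hsp90b1, Dnajb2, Dnajb5, Dnajc4, Dnajc10, Dnajc12 and Dnajc25) and 1 was lower (Bag2), beside 14.5% and 4.57%. Both shares of higher members are near the background. In liver over lung, where few genes differed at all (2.14% higher and 1.68% lower), 6 members were higher (Hspa1a, Hspa1b, Hsp90aa1, Hsph1, Dnaja1 and Bag2) and 2 were lower (Dnajc25 and Dnajb13). The median log2 ratio of the members was 0.03 in skin over lymph node, -0.17 in liver over lymph node and -0.31 in lung over lymph node, whereas over all genes it was -0.20, -0.45 and -0.41. It was 0.33 in skin over lung and 0.33 in skin over liver, beside 0.21 and 0.25 over all genes, and 0.07 in liver over lung, beside -0.04.

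That shift of all genes matters for the counts. With size factors that centre the median gene, the split became 8 higher and 0 lower in skin over lymph node, 10 and 2 in liver over lymph node, 2 and 2 in lung over lymph node, 8 and 2 in skin over lung, 4 and 2 in skin over liver and 6 and 2 in liver over lung. Of all genes, 7.10% were then higher and 6.52% lower in skin over lymph node, 7.45% and 8.26% in liver over lymph node. Those shares were 6.30% and 7.97% in lung over lymph node and 11.7% and 8.89% in skin over lung. They were 9.77% and 7.57% in skin over liver and 2.31% and 1.56% in liver over lung. Over the 6 comparisons 44 members never reached the mark in the first count, and their highest tissue lay between 1.11 and 1.99 times their lowest. The other 22 members (33.3%) reached the mark in at least 1 comparison, beside 43.1% of all genes.

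**Figure D1:**
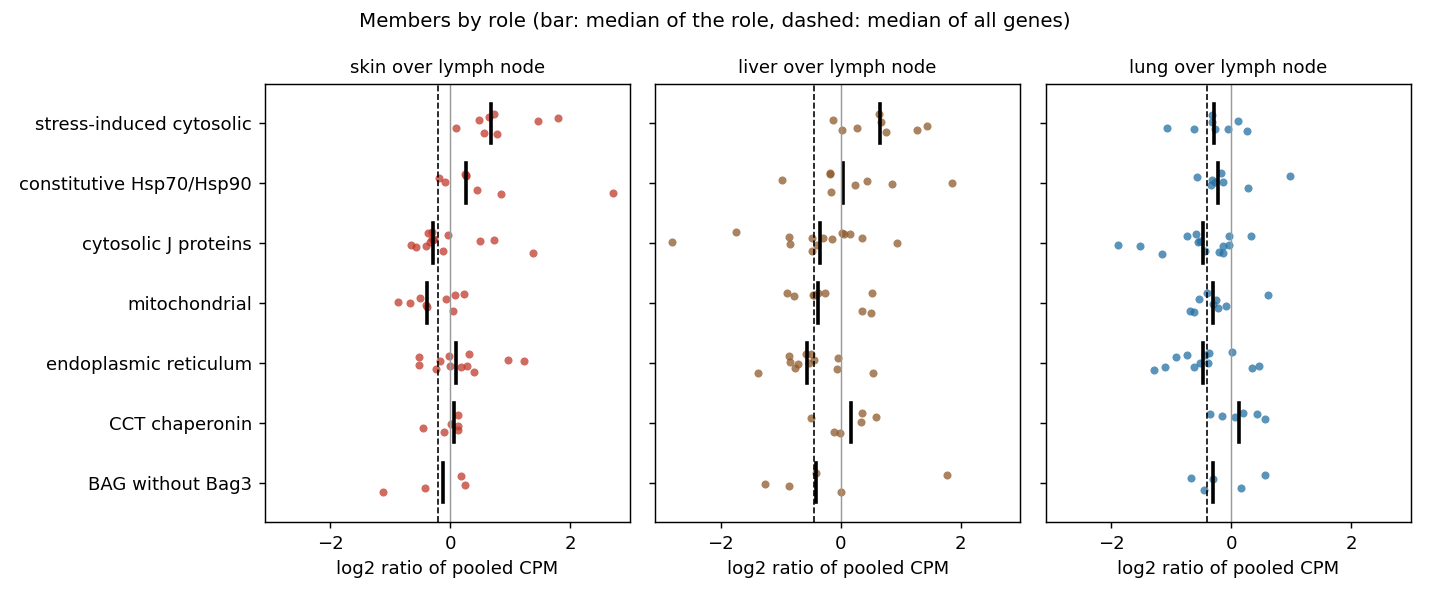
Log2 ratios of pooled CPM of skin, liver and lung, each over lymph node, with 1 point per member, grouped by role down the page. Short black bars are the median of the role and the dashed line is the median of all genes; the stress-induced genes sit furthest right in skin (median 0.69) and liver (0.66), and left of 0 in lung (-0.29).

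The inducible Hsp70 pair differed most clearly. Hspa1a, the major inducible Hsp70, had 349 CPM in skin (interval 329 to 370), 273 in liver (250.5 to 298), 108 in lung (101 to 116) and 100.2 in lymph node (91.2 to 110). Hspa1b, its near copy, had 45.3 CPM in skin, 25.4 in liver, 7.80 in lung and 16.3 in lymph node. Skin and liver were high and lung and lymph node low. For Hspa1a the intervals of the high and low tissues did not overlap, and for Hspa1b those of liver (18.8 to 33.6) and lymph node (12.8 to 20.5) did.

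Summed over both genes, skin was 3.38 times lymph node (3.06 to 3.75) and liver was 2.56 times lymph node (2.27 to 2.89). Lung over lymph node was 0.997 (0.896 to 1.11). Skin was 3.39 times lung, liver 2.57 times lung and skin 1.32 times liver (1.20 to 1.46). The lung value depends on how cells are weighed: over cells thinned to equal depth, described with the shares of cells, lung was 1.31 times lymph node (1.13 to 1.52), skin 4.05 times (3.53 to 4.66) and liver 3.52 times (3.00 to 4.14). The skin over lymph node and liver over lung ratios each lie within a pair of libraries whose cell names have the same form. Of 8 keratinocyte markers the table listed 3 (Krt10, Perp and Sfn), and these also summed to more in skin (82.0 CPM) and liver (56.5) than in lung (35.2) and lymph node (28.0), with none counted in over 7.37% of cells. Their part in the Hspa1a difference was not tested.

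Dnajb1, the Hsp40 that most often partners Hspa1a, had 382 CPM in skin, 268 in liver, 178 in lung and 222 in lymph node. Skin was 1.73 times lymph node (1.59 to 1.88) and 2.15 times lung (1.99 to 2.32). Its order was that of Hspa1a except that lung lay below lymph node, a direction that turned with size factors (1.06 in place of 0.802).

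Hsp90aa1, the inducible cytosolic Hsp90, had 675 CPM in skin (647 to 704), 985 in liver (941 to 1030), 486 in lung (471 to 502) and 405 in lymph node (387 to 424). Unlike Hspa1a it was highest in liver, at 2.43 times lymph node (2.28 to 2.59) and 2.02 times lung (1.92 to 2.14). No neighbours in this order had overlapping intervals. Hsph1 (Hsp110, which frees clients from Hsp70) had the same order at its top, with 41.6 CPM in skin, 65.3 in liver, 25.3 in lung and 38.8 in lymph node, and liver was 2.59 times lung (2.05 to 3.24).

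The other stress-induced members were low. Dnajb4, a J protein of the Dnajb1 type, ran between 14.0 and 24.3 CPM, and Dnaja4, an inducible J protein, between 13.6 and 25.5, each highest in skin and lowest in lung. Bag3, the stress-induced BAG protein that links Hsp70 to autophagy, had 9.11 CPM in skin, 9.85 in liver, 5.95 in lung and 6.18 in lymph node, and its intervals did not separate any pair of tissues. Of the 8 stress-induced genes, 5 were highest in skin, 3 in liver and 0 in lung or lymph node. Of all genes, 27.9% were highest in skin and 10.3% in liver. At the 2-fold mark, 2 of the 8 were higher in skin over lymph node (25%, beside 5.5% of all genes). In liver over lymph node 2 were higher (25%, beside 3.78%). Skin over lung had 3 higher (37.5%, beside 15.5%) and liver over lung 4 (50%, beside 2.14%). In lung over lymph node 1 was lower (12.5%, beside 18.3%).

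**Figure D2:**
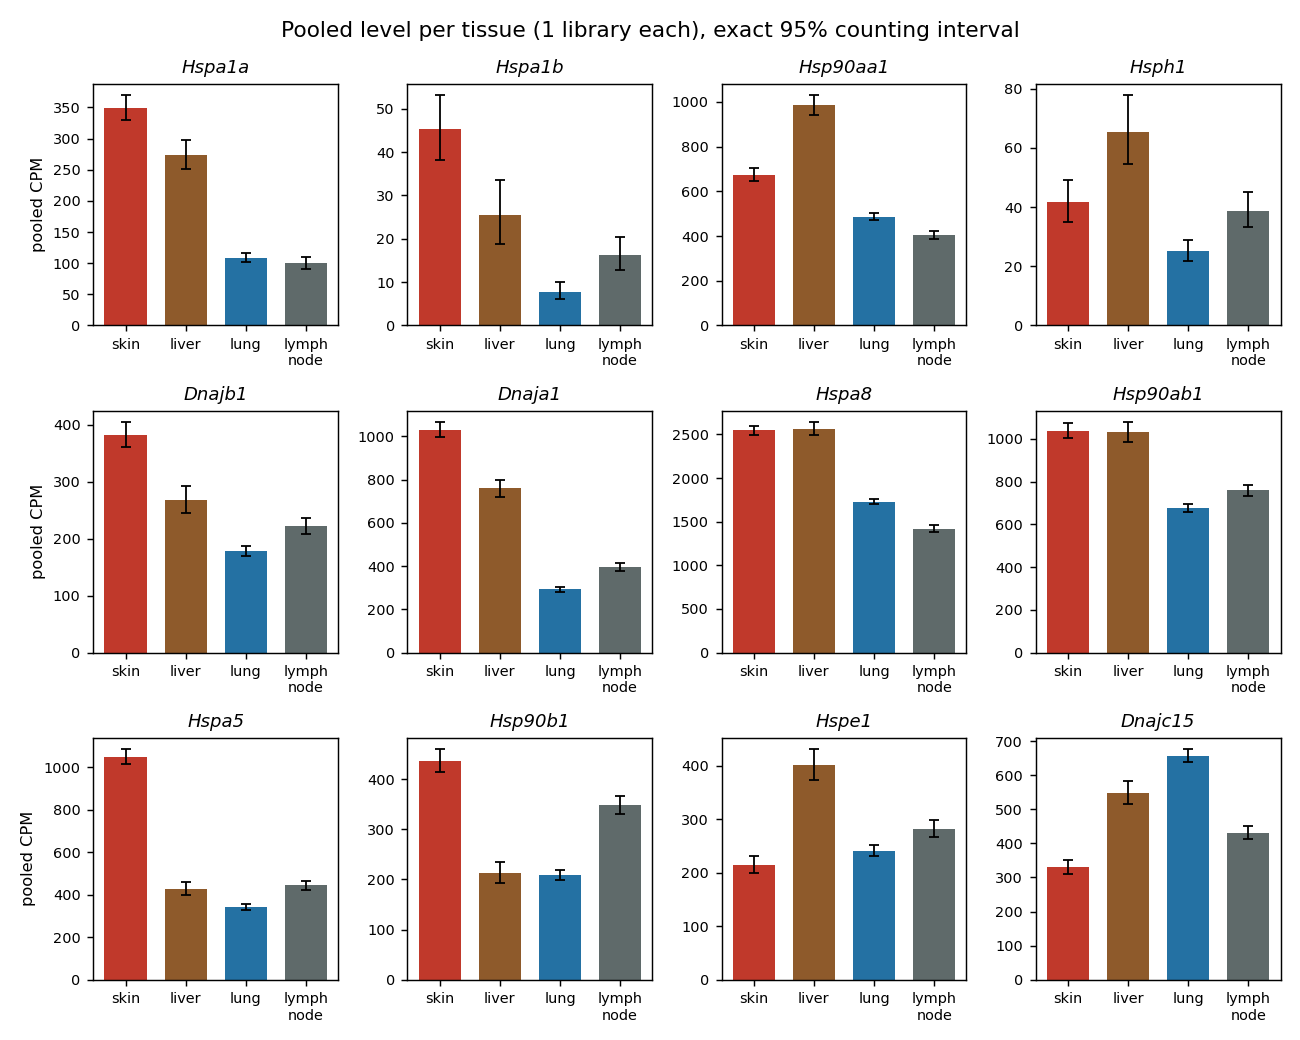
Pooled CPM of 12 members in skin, liver, lung and lymph node, 1 library each, with exact 95% counting intervals as error bars and a separate vertical scale from 0 for each gene. Hspa1a falls into a high pair (skin 349, liver 273) and a low pair (lung 108, lymph node 100.2), Hsp90aa1 and Hspe1 peak in liver, Hspa5 peaks in skin and Dnajc15 peaks in lung.

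The constitutive partners were also higher in skin and liver than in lymph node, by less than 2-fold. Hspa8 (Hsc70, the housekeeping Hsp70) had 2546 CPM in skin, 2566 in liver, 1731 in lung and 1421 in lymph node, and was counted in 95.7% of skin, 95.8% of liver, 94.2% of lung and 89.6% of lymph node cells. Skin over liver was 0.992 (0.958 to 1.03). Skin was 1.79 times lymph node (1.73 to 1.85) and liver 1.81 times (1.74 to 1.87). Hsp90ab1, the housekeeping Hsp90, had 1037 CPM in skin, 1032 in liver, 676 in lung and 760 in lymph node. Skin was 1.37 times lymph node (1.30 to 1.43), and its ratio to liver of 1.01 had an interval of 0.951 to 1.06.

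Set against its constitutive partner, the inducible Hsp70 pair gave 15.5 counts per 100 counts of Hspa8 in skin (14.6 to 16.4), 11.6 in liver (10.7 to 12.7), 6.71 in lung (6.28 to 7.17) and 8.20 in lymph node (7.49 to 8.96). Hsp90aa1 gave 65.1 counts per 100 counts of Hsp90ab1 in skin, 95.5 in liver, 72.0 in lung and 53.4 in lymph node (50.4 to 56.5). These ratios need no library total; they are not corrected for transcript length and serve only to compare tissues. By them, the Hsp70 balance was most inducible in skin and the Hsp90 balance most inducible in liver. In these pooled counts lung was below lymph node for Hsp70 and above it for Hsp90. Over cells thinned to equal depth, the Hsp70 order of lung and lymph node did not hold.

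Among the remaining members of the constitutive class, Hspa4, an Hsp110 relative, had 62.6 CPM in skin, 45.6 in liver, 41.1 in lung and 51.8 in lymph node. Hspa2, an Hsp70 best known from the testis, reached the 2-fold mark on few counts, with 62 counts in skin, 20 in liver, 46 in lung and 13 in lymph node, or 18.8, 10.4, 5.70 and 2.87 CPM. It was counted in 2.59% of skin cells at most. Hspa14, a ribosome-associated Hsp70, was the most even member of the family, between 51.9 and 57.8 CPM.

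The inducible Hsp70 genes were counted in a minority of cells. Cells were thinned to 1886 counts each, which kept 1083 skin, 529 liver, 2049 lung and 1494 lymph node cells. Hspa1a or Hspa1b was then counted in 23.9% of skin cells (21.4 to 26.6), 21.4% of liver cells (17.9 to 25.1), 5.71% of lung cells (4.74 to 6.80) and, in lymph node, 6.63% (5.42 to 8.01). Without thinning the shares were 28.6%, 25.9%, 7.45% and 9.17% in the same order of tissues. Genes of other cell types, as a gauge of free RNA, were counted at the same depth in up to 7.02% of skin cells and 7.37% of liver cells (Sfn), 5.22% of lung cells (Lyz2) and 2.41% of lymph node cells (an endothelial gene). The Hspa1 shares in skin, liver and lymph node were above these. In lung the intervals of the Hspa1 share and of Lyz2 (4.30 to 6.28) overlap, so this gauge does not set the lung share apart. The share of another gene does not measure free RNA of Hspa1a or Hspa1b, which was not tested in any tissue.

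Cells with many counts were rarer still. At least 3 counts of the pair were found in 8.31% of skin cells (6.74 to 10.1), 6.43% of liver cells (4.49 to 8.87), 2.73% of lung cells (2.07 to 3.53) and, in lymph node, 2.28% (1.58 to 3.17). These cells held 74.0% of all Hspa1a and Hspa1b counts in skin, 70.3% in liver, 84.3% in lung and 71.0% in lymph node. Before thinning, a cell with any count carried on average 3.71 counts in skin, 4.0 in liver, 5.42 in lung and 3.54 in lymph node. Skin and liver thus stood above lymph node mainly in how many cells had the transcripts and not in how many each such cell had. Lung had the smallest share of such cells and the highest average in each.

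**Figure D3:**
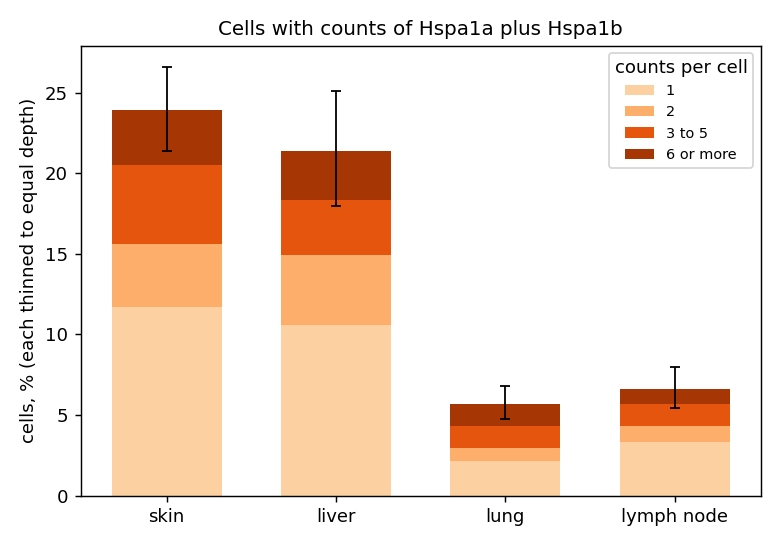
Percent of cells with 1, 2, 3 to 5, or 6 or more summed counts of Hspa1a and Hspa1b in skin, liver, lung and lymph node, after each cell was thinned to 1886 counts, with the exact 95% interval of the total share. Skin (23.9%) and liver (21.4%) stand near each other and well above lung (5.71%) and lymph node (6.63%).

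Cells with the inducible pair were then set against cells of the same tissue without it, at equal depth: 259 against 824 cells in skin, 113 against 416 in liver, 117 against 1932 in lung and 99 against 1395 in lymph node. Dnajb1 was higher in the cells with the pair in every tissue, at 1.93 times in skin (1.67 to 2.22), 2.21 in liver (1.74 to 2.79), 3.71 in lung (3.06 to 4.47) and 3.27 in lymph node (2.66 to 3.98). Hsp90aa1 was higher too, at 1.80 times in skin, 2.08 in liver, 3.05 in lung and 1.98 in lymph node. Cells of 1 library are not replicates, so these ratios describe the 4 libraries.

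Within each tissue, the constitutive Hsp90ab1 and Hspa8 showed smaller ratios than Dnajb1 and Hsp90aa1. Hsp90ab1 was 1.45 times as high in skin cells with the pair, 1.96 in liver, 2.47 in lung and 1.497 in lymph node, and Hspa8 was between 1.34 and 1.42 times as high in all 4 tissues. Hspe1 was higher in liver (1.87, 1.52 to 2.29) and lung (1.62, 1.28 to 2.03), while in skin (1.09) and lymph node (1.03) the intervals held 1. Hsp90b1 of the endoplasmic reticulum was at 0.998, 0.884, 0.837 and 0.864 times in skin, liver, lung and lymph node, with every interval holding 1, and the 6 summed Cct genes were between 1.03 and 1.15 times. Within those groups single genes differed from their class: Hspa5 was higher in skin (1.24, 1.13 to 1.36) and lung (1.28, 1.03 to 1.57), and Cct4 in skin (1.29, 1.01 to 1.64) and lung (1.47, 1.09 to 1.95). The stress-induced Hsph1 was higher in liver (2.21, 1.32 to 3.64). Its ratios of 1.51 in skin, 0.981 in lung and 0.445 in lymph node had intervals that held 1. Among the scarcer stress-induced genes, Dnajb4 was higher in skin (1.97, 1.08 to 3.48). The intervals of Dnajb4 in the other tissues, and all those of Dnaja4 and Bag3, held 1.

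**Figure D4:**
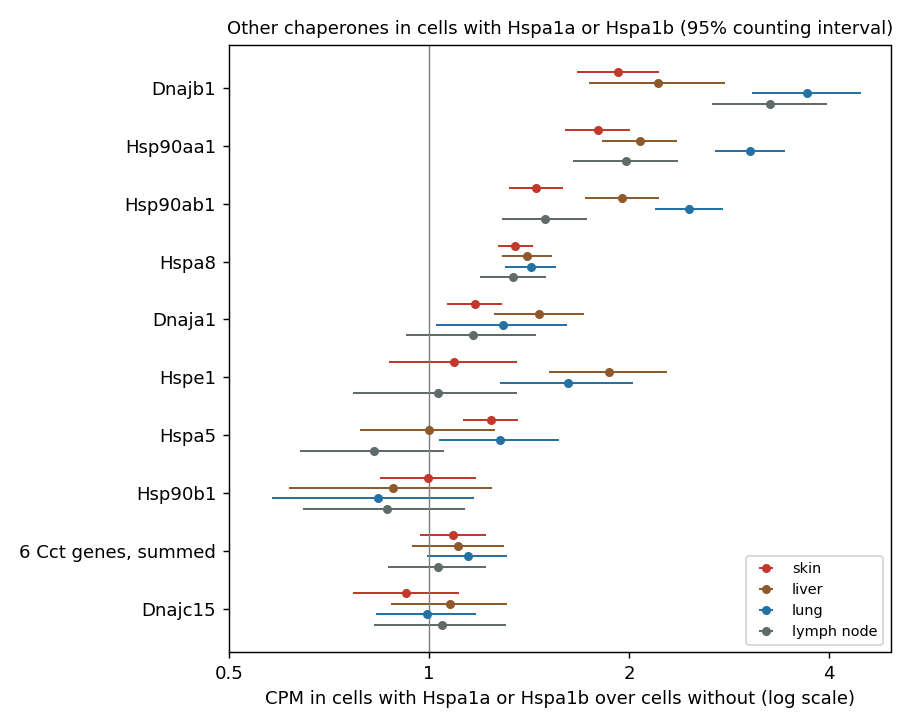
CPM in cells with Hspa1a or Hspa1b over CPM in cells of the same tissue without them, on a log axis with exact 95% counting intervals, for 9 chaperones and the sum of 6 Cct genes. Dnajb1 (1.93 to 3.71) and Hsp90aa1 (1.80 to 3.05) lie right of 1 in skin, liver, lung and lymph node, and the intervals of Hsp90b1 and the Cct sum include 1 in each.

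Immediate early genes, which respond to receptor signals and also to dissociation, were much higher in skin. Of 15 listed, 13 were at least 2-fold higher in skin over lymph node and 1 lower. These are 86.7% and 6.67%, beside 5.5% and 9.86% of all genes. In liver over lymph node, 5 of 14 were higher and 2 lower (35.7% and 14.3%, beside 3.78% and 20%). In lung over lymph node, 4 of 15 were higher and 3 lower (26.7% and 20%, beside 3.47% and 18.3%). Fos had 982 CPM in skin, 59.1 in liver, 106 in lung and 73.3 in lymph node, and Nr4a1, a reporter of receptor signaling, 1395, 167, 23.5 and 11.9 CPM in that order. The part of these genes in the chaperone differences was not tested, and a split by Fos cannot set them aside. Cells without a count of Fos still had Nr4a1 at 1411 CPM in skin, 163 in liver, 22.2 in lung and 9.75 in lymph node. In cells without a count of Fos Hspa1a was 3.36 times as high in skin as in lymph node (2.79 to 4.05), 3.58 times in liver (2.99 to 4.28) and 1.24 times in lung (1.05 to 1.48). Over all cells at the same depth, with and without Fos, these ratios were 4.12 (3.55 to 4.79), 3.79 (3.20 to 4.51) and 1.42 (1.21 to 1.66). Skin over liver was 0.938 (0.786 to 1.12) in cells without Fos and 1.08 (0.949 to 1.24) in all cells at that depth. Within a tissue, cells with Fos had 1.29 times the Hspa1a of cells without it in skin, 1.18 times in liver, 1.62 times in lung and 0.544 times in lymph node.

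Cycling cells, defined by counts of at least 3 listed proliferation genes, were few: 51 in skin, 18 in liver, 73 in lung and 15 in lymph node. They carried less of the inducible pair than the other cells, at 0.227 times in skin (0.104 to 0.433) and 0.220 times in lung (0.0597 to 0.567), while the liver interval, around 0.504, reached 1.11. Hsp90b1 was higher in cycling cells of every tissue, at 1.37 times in skin (1.01 to 1.82), 2.26 in liver (1.27 to 3.76), 2.58 in lung (1.97 to 3.34) and 1.97 in lymph node (1.18 to 3.10). Dnajc9, a J protein that is also a histone chaperone, was 3.41 times as high in skin (2.30 to 4.92) and 1.95 times in lung (1.39 to 2.66), while the intervals held 1 in liver (1.04, 0.331 to 2.48) and lymph node (2.20, 0.941 to 4.38).

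Among the cytosolic J proteins, Dnaja1, a farnesylated partner of Hspa8, set skin and liver apart most. It had 1030 CPM in skin (996 to 1065), 760 in liver (721 to 799.7), 294 in lung (282 to 306) and 397 in lymph node (379 to 416), and was counted in 77.7% of skin, 66.7% of liver, 42.9% of lung and 53.2% of lymph node cells. Skin was 2.59 times lymph node (2.45 to 2.75) and 3.51 times lung (3.33 to 3.70), and liver was 2.59 times lung (2.42 to 2.76). In the cells with Hspa1a or Hspa1b it was 1.17 times as high as in the other cells in skin, 1.47 in liver, 1.29 in lung and 1.16 in lymph node. Dnaja2, its relative, was nearly even, with 101 CPM in skin, 121 in liver, 130 in lung and 133 in lymph node.

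Of the 14 cytosolic J proteins, 9 were highest in lymph node, 3 in skin, 1 in liver and 1 in lung, in a table where 49.4% of all genes were highest in lymph node. At the 2-fold mark 1 was higher in skin over lymph node (7.14%, beside 5.5% of all genes). In liver over lymph node 2 were lower (14.3%) and in lung over lymph node 3 were lower (21.4%), near the shares of all genes (20% and 18.3%). Dnajc8, a splicing-associated J protein, had 235 CPM in skin, 160 in liver, 194 in lung and 290 in lymph node. Dnajb2, known for its role in neurons, had 18.8 CPM in skin and 19.2 in lymph node but 5.70 in liver and 6.69 in lung, the split that the pseudogenes also showed. The part of that library difference in the Dnajb2 values was not tested.

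In the endoplasmic reticulum, Hspa5 was the member that stood out and it did so in skin. It had 1049 CPM in skin (1014 to 1085), 429 in liver (400.2 to 459), 343 in lung (331 to 356) and 444 in lymph node (425 to 464). Skin was 2.36 times lymph node (2.23 to 2.50), 2.45 times liver (2.27 to 2.64) and 3.06 times lung (2.91 to 3.21), and a count was found in 79.8% of skin cells and 45.0 to 51.4% of cells elsewhere. Liver and lymph node overlapped. This order is not that of Hspa1a, for which liver stood with skin.

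Hsp90b1 had 436 CPM in skin, 213 in liver, 209 in lung and 348 in lymph node. Skin was 1.25 times lymph node (1.16 to 1.34) and 2.05 times liver (1.84 to 2.29), and liver and lung lay together. Dnajc10, a reductase J protein, had the same pattern with 49.2 CPM in skin, 23.9 in liver, 22.8 in lung and 43.2 in lymph node. Both run high in skin and lymph node and low in liver and lung, as do the 13 pseudogenes, whose part was not tested. Dnajb9, which recruits BiP to the sensor Ire1, was instead graded, at 99.9 CPM in skin, 74.2 in liver, 70.6 in lung and 51.2 in lymph node. Dnajc3, an inhibitor of the kinase Perk, was highest in lymph node at 204 CPM, against 173 in skin, 137 in liver and 156 in lung.

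Of the 12 members in this class, 6 were highest in skin, 5 in lymph node, 1 in lung and 0 in liver. Of all genes, 27.9% were highest in skin, 49.4% in lymph node, 12.3% in lung and 10.3% in liver. At the 2-fold mark 1 was higher in skin over lymph node (8.33%, beside 5.5% of all genes), 4 in skin over liver (33.3%, beside 14.5%) and 3 in skin over lung (25.0%, beside 15.5%). Lower members were 1 in liver over lymph node (8.33%, beside 20% of all genes) and 2 in lung over lymph node (16.7%, beside 18.3%). In liver over lung 1 was lower (8.33%, beside 1.68%). Outside the family, a list of 15 endoplasmic reticulum stress genes had 0 of 14 measured members past the mark in skin over lymph node, 3 higher in skin over liver (21.4%) and 3 higher in skin over lung (21.4%). Herpud1, a target of the unfolded protein response that aids degradation, had 128 CPM in skin, 40.5 in liver, 35.9 in lung and 70.4 in lymph node, and skin was 1.81 times lymph node (1.56 to 2.10). The isomerase Pdia3 had 513 CPM in skin, 204 in liver, 265 in lung and 431 in lymph node. Ddit3 (Chop), the effector of prolonged stress, had 52.2 CPM in skin, 35.3 in liver, 40.6 in lung and 55.4 in lymph node.

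Liver led the mitochondrial chaperonin. Hspe1 (the lid, Hsp10) had 214 CPM in skin (199 to 231), 401 in liver (373 to 430.2), 241 in lung (231 to 252) and 282 in lymph node (267 to 298). Hspd1 (the barrel, Hsp60) had 87.8 CPM in skin, 132 in liver, 76.9 in lung and 91.6 in lymph node. Liver was 1.42 times lymph node for Hspe1 (1.30 to 1.56) and 1.44 times for Hspd1 (1.23 to 1.69), and neither reached 2-fold in any comparison.

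Both genes start at the shared window shown above. Their balance was 244 counts of Hspe1 per 100 of Hspd1 in skin (212 to 281), 303 in liver (263 to 351), 314 in lung (287 to 344) and 308 in lymph node (275 to 345). The balance in liver, lung and lymph node was alike within counting error, and skin was lower. Hspa9 (mortalin, the Hsp70 of the matrix) did not share the liver peak, with 53.8 CPM in skin, 37.3 in liver, 48.1 in lung and 51.0 in lymph node.

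Dnajc15, a J protein of the mitochondrial import motor, was highest in lung and lowest in skin: 330 CPM in skin (311 to 350.1), 549 in liver (516 to 583), 657 in lung (640 to 675) and 430.5 in lymph node (412 to 450.0). Lung was 1.53 times lymph node (1.45 to 1.61), and skin over lung was 0.502 (0.470 to 0.536), just short of the 2-fold mark. Dnajc19, another J protein of the import motor, ran opposite, with 125 CPM in skin, 87.6 in liver, 83.4 in lung and 120.5 in lymph node. Its high and low pairs are those of the pseudogenes, and their part was not tested.

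The chaperonin CCT was the most even group. The 6 subunits that met the naming rule summed to 825 CPM in skin, 907 in liver, 905 in lung and 813 in lymph node. None of them passed the 2-fold mark in any comparison. Tcp1, a further subunit, was counted with the genes outside the family. Cct2 differed most, with 86.6 CPM in skin, 140 in liver, 138 in lung and 92.9 in lymph node, and lung was 1.49 times lymph node (1.33 to 1.67). Cct3 was highest in lymph node (105 CPM, against 76.5 in skin, 75.2 in liver and 82.5 in lung). Cct4, Cct5, Cct7 and Cct8 lay between 117 and 225 CPM. The subunits of this complex did not follow a single order of tissues.

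Of the BAG proteins, Bag1, the founding nucleotide exchange factor of Hsp70, had 203 CPM in skin, 179 in liver, 199 in lung and 178 in lymph node. Bag6, which guards membrane proteins on their way to insertion, had 55.6 in skin, 35.3 in liver, 29.6 in lung and 47.0 in lymph node, again the split of the pseudogenes. Bag5 was lower in skin (13.1 CPM) and liver (11.9) than in lymph node (28.5), with 23.0 in lung; the skin over lymph node ratio was 0.459 (0.317 to 0.653). Bag2 was higher in liver at 8.30 CPM, against 2.43 in skin, 3.59 in lung and 2.43 in lymph node, on few counts.

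Outside the family, Hsf1 had 30.1 CPM in skin, 15.6 in liver, 19.3 in lung and 30.0 in lymph node, with the split of the pseudogenes. A transcript level says nothing of the factor's activity. A further list held cochaperones of Hsp70 and Hsp90, subunits of prefoldin (the Pfdn genes and Vbp1) and the CCT subunit Tcp1. Of its 21 measured genes, 0 were higher and 0 lower in skin over lymph node, beside 5.5% and 9.86% of all genes. In liver over lymph node 0 were higher and 3 lower (14.3%, beside 20% of all genes). In skin over lung 2 were higher (9.52%, beside 15.5%), St13 (2.31, 2.01 to 2.65) and Fkbp5 (2.01, 1.40 to 2.87). In skin over liver 1 was higher (4.76%, beside 14.5%), which was Fkbp5 (2.47, 1.36 to 4.79). Stip1 (Hop, which bridges Hsp70 to Hsp90) had 76.8 CPM in skin, 49.3 in liver, 43.5 in lung and 53.8 in lymph node, and skin was 1.43 times lymph node (1.19 to 1.71).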

How the data were processed

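Single-cell RNA counts of CD8+Thy1.1+ T cells from skin, liver, lung and draining lymph node were used. The values are raw counts, in 1 table the authors deposited with 9223 genes and 5727 cells. It was made with Bowtie and RSEM on mm10, per the submitters' processing notes; versions, cell filters and whether counts are of unique molecules are not stated in the sources at hand. Tissue was read from the cell names, and 0 columns lacked one. The 16 samples are 4 lane-like entries per tissue, treated as 1 library, so p-values would measure nothing between mice and none was computed.

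Cells of a tissue were pooled, and each gene's counts were scaled by the pooled total (CPM). Intervals are exact at 95%: Poisson for CPM, conditional binomial for ratios, Clopper-Pearson for shares of cells, and all cover counting error only. A gene was called at 2-fold with its interval excluding equality and a summed count of at least 20. Shares were taken after thinning each cell to 1886 counts, which left out 141 skin, 27 liver, 273 lung and 131 lymph node cells. Scrublet (scanpy 1.11.5) marked 27 doublets in skin, 17 in liver, 10 in lung and 8 in lymph node (1.08%), which were kept. The ratio step was tested on simulated data. Analyses ran in Python 3.11.15 with numpy 2.4.6, scipy 1.17.1 and pandas 2.3.3.

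The members and lists were chosen with earlier results of these data known. Members named were those of the stress-induced list with their constitutive partners, Hspd1, Hspe1, Hspa9, Hspa5, Hsp90b1 and the Cct genes, and per comparison up to 8 in each direction of 50 CPM or more that were counted in 10% of cells. Any other member could be named; members outside that rule were named after their values were seen. Alternatives were 2 other scalings, doublets, cycling cells or the top cell left out, equal weight per cell, other count minimums and 1.5-fold. The comparisons in cells without Fos and over thinned cells were chosen after seeing the data.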

Additional observations from a re-analysis of the deposited data

How the results depend on the processing

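No paired analysis was possible because each tissue is 1 library and the sample numbers mark lane-like entries. With 1 library per tissue no replicate could be left out, and intervals hold counting error only; members under about 20 summed counts are beyond this depth. Leaving out doublets, or dropping the count minimum, kept all 12 counts of members within 1.5 times the reported ones. Size factors gave 10 higher and 2 lower members in liver over lymph node, 2 and 2 in lung over lymph node, 4 and 2 in skin over liver, 2 lower in skin over lung and 0 lower in skin over lymph node. At 1.5-fold the counts were 12 higher and 4 lower in skin over lymph node, 9 and 14 in liver over lymph node, 2 and 14 in lung over lymph node, 21 and 4 in skin over lung, 6 lower in skin over liver and 11 higher in liver over lung. Among all genes at 1.5-fold, 9.01% were higher and 20.1% lower in skin over lymph node, 6.32% and 32.8% in liver over lymph node. Those shares were 5.89% and 36.4% in lung over lymph node and 26.9% and 12.0% in skin over lung. In skin over liver 8.77% were lower, and in liver over lung 4.16% were higher. A summed count of at least 100 gave 2 higher and 1 lower in liver over lymph node, beside 3.05% and 14.7% of all genes. It gave 4 and 0 in skin over liver (beside 12.1% and 4.04%) and 1 lower in liver over lung (beside 0.921%). Fewer genes are tested at that minimum. A total without ribosomal and mitochondrial genes gave 5 and 2 in skin over liver, beside 12.2% and 5.72% of all genes. With that total 1 was lower in skin over lung, beside 7.40%. In lung over lymph node 1 member was higher without cycling cells, without the top cell and with cells weighted equally. Of all genes, 3.45%, 3.71% and 3.51% were higher under these settings in the same order. Skin over lung had 1 lower without the top cell (beside 6.78% of all genes) and 2 lower with equal weight (beside 6.21%). Lung over lymph node turned direction with size factors for the median log2 ratio of members (0.091). So did the ratios of Dnajb1 (1.06), Hsp90ab1 (1.17), Hspd1 (1.11), Hspe1 (1.13), Hspa5 (1.02), Cct3 (1.03) and Cct7 (1.19). Size factors multiply every ratio of a comparison by the same factor. The median log2 ratio of all genes moved with them from -0.41 to -0.005. Why the median gene lay below equality before was not tested. Under size factors 77 ratios of named members moved beyond their counting interval, 7 turned and 66 did neither; equal weight per cell moved 18, the total without ribosomal and mitochondrial genes 15 and leaving out cycling cells 4. Over cells thinned to equal depth, an alternative chosen after seeing the data, Hspa1a plus Hspa1b in lung over lymph node was 1.31 in place of 0.997. Shares of cells depend on depth: 186 moved beyond their interval without thinning or at 1000 counts, and 14 did not.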
